A study of Mus musculus with 18 samples.

Results

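The genes described here encode the subunits of the transcription factor NF-kB (Nfkb1, Nfkb2, Rela, Relb and Rel), the IkB proteins that hold it in check or modify it (Nfkbia, Nfkbib, Nfkbie and Nfkbiz), and the ubiquitin-editing enzyme A20 (Tnfaip3). These 10 genes were chosen by name from the 54838 genes of the count table, with earlier results of these data known. All 10 were present and passed the filter on low counts that left 20067 genes for testing. RNA was sequenced from 18 mouse cultures in 6 conditions with 3 replicates each. The starting cells were neurospheres (NSPs), floating aggregates of neural stem cells taken at embryonic day 14 from single wild-type C57BL/6J brains and kept dividing with EGF at 20 ng/ml. The other cultures were plated on poly-L-ornithine in medium with 10% fetal bovine serum, in which NSPs turn into astrocytes, and harvested after 24 h or 72 h, each with and without TNF (50 ng/ml), or after 1 week without it. No culture of 1 week with TNF was analysed here. The labels do not say whether replicates came from separate embryos, so the p-values measure the spread between these cultures.

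NF-kB acts as a dimer of its subunits. In resting cells IkB proteins, above all IkBalpha (Nfkbia), keep dimers of p50 (from Nfkb1) and RelA (Rela) in the cytoplasm. TNF binding to its receptor activates the IkB kinase complex, IkB proteins are degraded, and the freed dimers enter the nucleus and turn on inflammatory genes. The genes for IkBalpha and A20 are themselves classical NF-kB targets, and their products then dampen the signal. A slower, non-canonical branch processes p100 (Nfkb2) to p52, which pairs with RelB (Relb). In astrocytes the pathway is known for driving the reactive, inflammatory state.

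The sequence that NF-kB dimers recognise, the kB site, was looked for in the promoters of the members, because the members that rose with TNF and those that did not can then be read side by side. RefSeq promoter windows on GRCm38.p6, each 300 bases long from 250 bases before to 50 bases after an annotated start, were at hand for 7 of the 10 members. None was at hand for Nfkb1, Relb and Nfkbiz. Matches on either strand to the kB consensus or to the shorter motif GGANTTTCC are in capitals, and matches that overlap are merged. The kB consensus was found in 8.46% of all 32851 windows of this length, GGANTTTCC in 1.25% and either motif in 9.1%. A match is a run of letters and not evidence of binding.

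The windows of the 4 members below that rose with TNF at both times each held at least 1 match. In Nfkbia (chr12:55492598-55492897, minus strand) matches begin at -178 and -29 from the start. In Tnfaip3 (chr10:19015361-19015660, minus strand) they begin at -125, -24 and -12, in the first Nfkb2 window (chr19:46304487-46304786, plus strand) at -39, -38 and -11, and in Nfkbie (chr17:45555450-45555749, plus strand) at -106.
Nfkbia: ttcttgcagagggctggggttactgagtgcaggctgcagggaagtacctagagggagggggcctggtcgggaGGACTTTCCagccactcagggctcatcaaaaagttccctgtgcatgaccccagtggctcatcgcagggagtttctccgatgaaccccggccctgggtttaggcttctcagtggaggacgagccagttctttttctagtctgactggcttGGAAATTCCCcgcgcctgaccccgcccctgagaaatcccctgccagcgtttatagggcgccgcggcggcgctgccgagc
Tnfaip3: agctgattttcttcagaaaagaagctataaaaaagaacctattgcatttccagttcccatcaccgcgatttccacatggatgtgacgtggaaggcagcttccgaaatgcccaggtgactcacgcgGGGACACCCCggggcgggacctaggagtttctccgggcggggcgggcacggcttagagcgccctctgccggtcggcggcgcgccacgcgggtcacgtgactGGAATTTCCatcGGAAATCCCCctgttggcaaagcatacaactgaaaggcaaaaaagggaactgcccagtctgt
Nfkb2: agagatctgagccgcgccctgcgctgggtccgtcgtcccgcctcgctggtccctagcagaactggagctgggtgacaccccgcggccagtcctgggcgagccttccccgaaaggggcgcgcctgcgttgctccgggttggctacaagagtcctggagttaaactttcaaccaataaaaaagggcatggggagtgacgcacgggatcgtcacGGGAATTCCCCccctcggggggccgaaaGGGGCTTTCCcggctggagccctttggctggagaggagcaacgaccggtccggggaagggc
Nfkbie: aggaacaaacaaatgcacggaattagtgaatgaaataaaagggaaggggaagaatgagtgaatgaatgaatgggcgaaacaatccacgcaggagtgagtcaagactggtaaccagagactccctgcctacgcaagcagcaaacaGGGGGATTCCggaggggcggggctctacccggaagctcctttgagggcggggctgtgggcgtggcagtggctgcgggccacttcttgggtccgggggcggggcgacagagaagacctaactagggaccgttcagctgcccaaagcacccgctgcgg

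For contrast, the windows of 2 subunit genes that did not pass the test with TNF are shown. Rel (chr11:23770920-23771219, minus strand) held matches beginning at -92 and -91, so a match was also present in a gene without a called response. Rela (chr19:5637291-5637590, plus strand) held none.
Rel: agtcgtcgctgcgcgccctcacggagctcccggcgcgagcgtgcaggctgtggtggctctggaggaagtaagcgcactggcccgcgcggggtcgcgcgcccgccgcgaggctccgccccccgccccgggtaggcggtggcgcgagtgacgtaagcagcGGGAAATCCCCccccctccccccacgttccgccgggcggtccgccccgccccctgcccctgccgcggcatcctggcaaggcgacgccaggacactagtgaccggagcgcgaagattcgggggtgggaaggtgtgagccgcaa
Rela: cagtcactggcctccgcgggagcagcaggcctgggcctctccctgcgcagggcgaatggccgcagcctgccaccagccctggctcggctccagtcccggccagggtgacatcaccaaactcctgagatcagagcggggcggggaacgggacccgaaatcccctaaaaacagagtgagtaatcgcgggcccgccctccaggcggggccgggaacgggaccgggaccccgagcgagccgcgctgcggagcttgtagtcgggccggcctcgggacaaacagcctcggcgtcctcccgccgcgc
The remaining windows were not printed. Both further Nfkb2 windows, which overlap each other, held matches, and the Nfkbib window and the other Tnfaip3 window held none. In all, 5 of the 7 members with a window held a match, beside 10.3% of all 27025 genes in the table.

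Total counts per library ranged from 12509693 to 22549627, and every pair of replicates differed beyond counting noise, with a chi-square of 3.86 to 59 for each degree of freedom. Replicate 1 stood apart in NSPs and in both TNF groups. Pairs with it had 42.6 to 59, while replicates 2 and 3 had 3.86 in NSPs and 8.37 and 11.7 with TNF at 24 h and 72 h. Levels are given as CPM, the count of a gene scaled to the total count of its library with TMM factors. A level divided by the gene's exonic length in kilobases is called CPM per kb and is the only scale used between genes. Gene positions are given on GRCm38, the build the reads were aligned to, with the Ensembl identifiers of the count table. A gene passed the test, and is said to have risen or fallen, where the adjusted p of edgeR's quasi-likelihood test was under 0.05. Reads are not independent molecules, so depth covers counting error only. The 8 astrocyte markers fixed for this work (among them Slc1a3, Aldoc and Gfap) summed to between 2680 and 8135 CPM in every library, NSPs included. Of 8 microglial markers, Cd68 had 20 to 243 counts per library, P2ry12 7 to 36, Csf1r 5 to 19, Cx3cr1 1 to 9, Aif1 1 to 6, Tmem119 0 to 4, Ptprc (CD45) 0 to 3 and Itgam (CD11b) 0 to 1.

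TNF raised 7 of the 10 members at 24 h and lowered none, where 3.5% of the 20067 genes tested changed (2.18% rose and 1.32% fell). At 72 h it raised 6 and lowered none, where 9.56% of genes changed (4.35% rose and 5.21% fell). The median log2 fold change over the members was 1.04 at 24 h and 0.97 at 72 h, against -0.01 over all genes tested at each time. The feedback inhibitors Tnfaip3 and Nfkbia and the subunit Relb changed most, while Rela did not pass the test at either time. The order of sizes can be followed in the plot of TNF effects. In these bulk samples a change in the RNA of each cell and a change in the number of cells that hold it cannot be told apart.

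**Figure D1:**
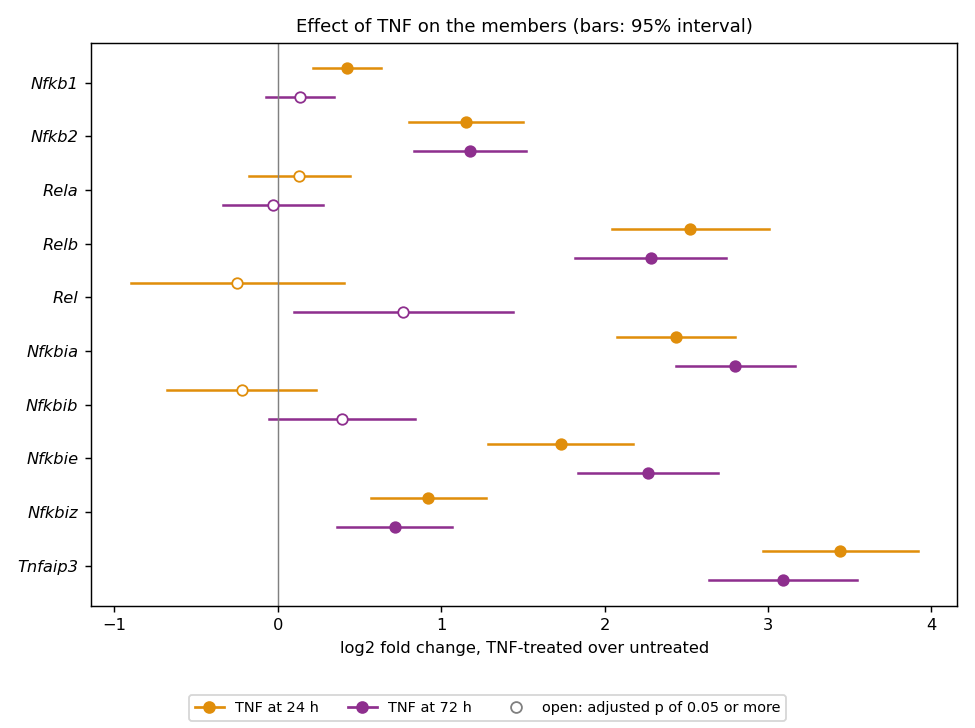
Log2 fold change of TNF-treated over untreated cells on the horizontal axis for each of the 10 genes, at 24 h (orange) and 72 h (purple), from 3 libraries per condition. Bars are 95% intervals and filled points passed the test. Tnfaip3, Nfkbia, Relb and Nfkbie lie above 1.7 at both times and Rela lies near 0.

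Nfkbia (ENSMUSG00000021025, chr12:55489410-55492647, minus strand), the IkB that is resynthesised after TNF, was the most abundant member after treatment. Its untreated levels at 24 h were 24.1, 30.3 and 27.9 CPM in replicates 1 to 3, and with TNF they were 151, 135 and 161 CPM. Untreated cells at 72 h had 16, 23.2 and 26.6 CPM, and TNF-treated cells 156, 146 and 158 CPM. Every treated library was far above every untreated one. The increase was 5.41-fold at 24 h (log2 2.44, SE 0.17, edgeR adjusted p = 6.87e-08) and 6.96-fold at 72 h (log2 2.80, SE 0.17, edgeR adjusted p = 1.2e-08). NSPs (19.3 to 28.5 CPM) and cells at 1 week (19.3 to 23.4 CPM) lay in the range of the other untreated cultures.

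Tnfaip3 (ENSMUSG00000019850, chr10:19000910-19015657, minus strand), whose product A20 removes the ubiquitin chains that carry the TNF signal, had the largest change of the members at both times. At 24 h it went from 3.17, 3.69 and 3.66 CPM to 39.2, 38.1 and 37.5 CPM with TNF, a 10.9-fold increase (log2 3.44, SE 0.23, edgeR adjusted p = 3.5e-08). The 3 treated libraries were almost equal. At 72 h it went from 5.29, 5.27 and 5.50 CPM to 27.5, 52.5 and 57.2 CPM, an 8.53-fold increase (log2 3.09, SE 0.22, edgeR adjusted p = 7.82e-08). Here replicate 1 of the treated cells was well below the other 2, yet still above all untreated libraries.

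Nfkbie (ENSMUSG00000023947, chr17:45555703-45563169, plus strand), encoding IkBepsilon, rose with TNF at both times and was higher at 72 h than at 24 h. At 24 h untreated libraries had 4.15, 4.69 and 4.31 CPM and treated ones 19.3, 12.7 and 11.8 CPM (log2 1.73, SE 0.21, edgeR adjusted p = 7.15e-05). At 72 h untreated libraries had 5.75, 6.86 and 7.48 CPM and treated ones 25.5, 32.9 and 38.6 CPM (log2 2.27, SE 0.20, edgeR adjusted p = 1.2e-06). The treated libraries at 72 h all exceeded those at 24 h, a 2.21-fold rise (log2 1.14, SE 0.19, edgeR adjusted p = 0.000838). It was the single member of the 10 to change between 24 h and 72 h of TNF, where 13.3% of genes changed (5.38% rose and 7.93% fell), a share close to 1 of 10. It also rose over the same interval without TNF (log2 0.61, edgeR adjusted p = 0.0442), and the TNF effects at the 2 times did not pass as different (log2 0.53, 95% interval -0.07 to 1.14, edgeR adjusted p = 0.555). Without replicate 1 of the 24 h TNF cells, the library with the highest Nfkbie of its group, 4 members rose: Nfkbie and also Nfkb1, Nfkb2 and Relb (edgeR adjusted p = 0.0476, 0.025 and 0.0308). In that fit 3793 of the 20067 genes tested changed, against 2670 with all libraries. Without replicate 1 of the 72 h TNF cells 3 members changed, Nfkbie and Tnfaip3 upward (Tnfaip3 edgeR adjusted p = 0.0155) and Nfkbiz downward (edgeR adjusted p = 0.0184). Over all genes 2536 changed in this second fit.

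Nfkbiz (ENSMUSG00000035356, chr16:55811375-55838899, minus strand) encodes IkBzeta, a nuclear member of the family that works as a co-regulator of a subset of inflammatory genes. It was highest in NSPs, at 50.0, 41.0 and 40.6 CPM. Untreated cells had 19.4, 19.8 and 18.2 CPM at 24 h, and TNF brought it to 43.3, 32 and 33.3 CPM, a range that overlaps that of NSPs (log2 0.92, SE 0.17, edgeR adjusted p = 0.00338). At 72 h it was 18, 17.2 and 17.5 CPM without and 38.2, 23.5 and 25.0 CPM with TNF (log2 0.72, SE 0.17, edgeR adjusted p = 0.00997). Replicate 1 of the 72 h TNF cells stood above the others, and without it the log2 change was 0.47 and no longer passed (edgeR adjusted p = 0.063).

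Nfkbib (ENSMUSG00000030595, chr7:28758251-28767512, minus strand), encoding IkBbeta, was low and flat by comparison. It stayed between 3.58 and 7.12 CPM in all 18 libraries. Its log2 change with TNF was -0.22 at 24 h (95% interval -0.68 to 0.23) and 0.40 at 72 h (95% interval -0.05 to 0.84), and neither passed (edgeR adjusted p = 0.745 and 0.258). Treated libraries at 72 h lay above the untreated ones without overlap, as did 12.7% of all genes tested. Its exons share 356 bases with Ccer2 and Sirt2 on the opposite strand, Sirt2 was at 58.1 to 166 CPM, and the strand setting of the counting is not given in the sources used here, so the Nfkbib level is uncertain.

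**Figure D2:**
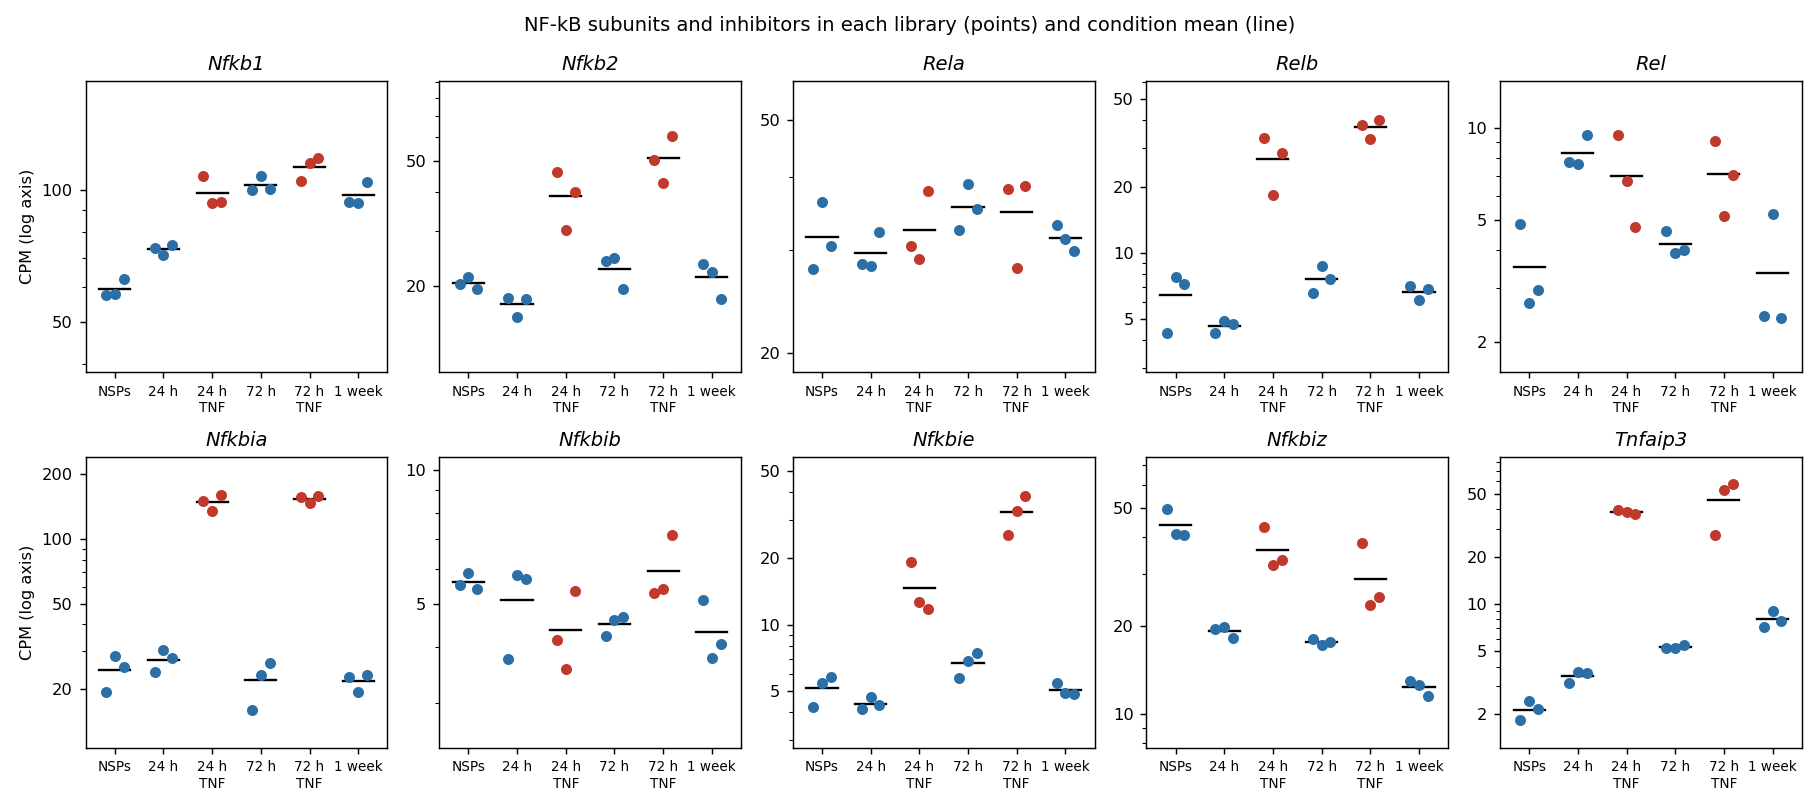
CPM (log axis, its own range in each panel) of the 10 genes in the 18 libraries, ordered by condition, with TNF-treated libraries in red, untreated ones in blue and a line at the mean of the 3 libraries. Treated Nfkbia, Tnfaip3, Relb and Nfkbie stand clear of all untreated libraries, whereas the treated Rela libraries lie among the untreated ones.

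Among the subunits, Relb (ENSMUSG00000002983, chr7:19606217-19629438, minus strand), the partner of p52 in the non-canonical branch, changed most. Untreated cells at 24 h had 4.30, 4.91 and 4.72 CPM, and treated cells 33.4, 18.4 and 28.5 CPM. At 72 h the values were 6.58, 8.70 and 7.59 CPM without and 38.3, 33.0 and 40.3 CPM with TNF. Treated and untreated libraries did not overlap at either time. The increase was 5.75-fold at 24 h (log2 2.52, SE 0.23, edgeR adjusted p = 2.59e-06) and 4.87-fold at 72 h (log2 2.28, SE 0.22, edgeR adjusted p = 2.62e-06).

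Nfkb2 (ENSMUSG00000025225, chr19:46304320-46312385, plus strand), the gene of p100 and p52, rose with Relb but less. At 24 h it was at 18.3, 15.9 and 18.2 CPM without and 46.1, 30.2 and 40.0 CPM with TNF (log2 1.15, SE 0.17, edgeR adjusted p = 0.000408). At 72 h it was at 24.0, 24.5 and 19.5 CPM without and 50.5, 42.8 and 60.2 CPM with TNF (log2 1.18, SE 0.16, edgeR adjusted p = 0.000111). The increase was thus 2.22-fold at 24 h and 2.26-fold at 72 h, with no overlap. Nfkb2 shares 830 exonic bases with Psd and AC114539.1 on the opposite strand, and Psd was at 14.0 to 34.3 CPM, so part of its count is uncertain.

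Nfkb1 (ENSMUSG00000028163, chr3:135584655-135691547, minus strand), the gene of p105 and p50, showed a small rise with TNF at 24 h. It went from 73.6, 71.0 and 75.0 CPM to 108, 93.3 and 93.9 CPM, a 1.34-fold increase (log2 0.43, SE 0.10, edgeR adjusted p = 0.0201). This call did not hold when a library was left out: the edgeR adjusted p was 0.0847, 0.104 and 0.0723 without replicates 1, 2 and 3 of the untreated cells and 0.118 without replicate 1 of the treated cells. It was also lost with no filter on low counts, with at least 5 counts in total and with only the groups compared (edgeR adjusted p = 0.132, 0.0623 and 0.069). At 72 h untreated (100, 108 and 100 CPM) and treated libraries (105, 115 and 118 CPM) overlapped, and the log2 change of 0.14 (95% interval -0.07 to 0.34) did not pass (edgeR adjusted p = 0.417).

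Rela (ENSMUSG00000024927, chr19:5637483-5648130, plus strand), the main transactivating subunit of the canonical branch, stayed between 27.9 and 38.9 CPM in all 18 libraries. Its log2 change with TNF was 0.13 at 24 h (95% interval -0.18 to 0.44, edgeR adjusted p = 0.781) and -0.03 at 72 h (95% interval -0.33 to 0.28, edgeR adjusted p = 0.931). Both intervals leave out a change of 1 on the log2 scale. Rel (ENSMUSG00000020275, chr11:23736847-23770970, minus strand), encoding c-Rel, the subunit best known from lymphocytes, had few counts (34 to 162 per library) and a wide spread. With TNF it was at 9.50, 6.70 and 4.77 CPM against 7.78, 7.65 and 9.52 CPM untreated at 24 h, and the groups overlapped (log2 -0.25, 95% interval -0.90 to 0.40, edgeR adjusted p = 0.814). At 72 h treated libraries had 9.12, 5.16 and 7.06 CPM and untreated ones 4.61, 3.92 and 4.01 CPM. Treated libraries thus lay above untreated ones without overlap, as they did for 12.7% of all genes tested. The difference did not pass (log2 0.77, SE 0.32, edgeR adjusted p = 0.14). With no filter on low counts it did (edgeR adjusted p = 0.0416).

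Whether the TNF effect differed between the times was tested with the interaction of TNF and time. No member passed in edgeR's or DESeq2's test, where 0.458% of all genes did in edgeR's. Rel was the 1 member with an unadjusted p under 0.05, its log2 effect being 1.02 higher at 72 h (edgeR adjusted p = 0.453). For Nfkbia the difference between the 2 effects was 0.36 on the log2 scale (95% interval -0.12 to 0.85) and for Tnfaip3 -0.35 (95% interval -0.98 to 0.28). Both intervals include 0.

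In treated cultures other cell markers moved too, and their part in these results was not tested. Of the 8 microglial markers 3 could be tested, and Cd68, a lysosomal protein of phagocytes, rose at 24 h (log2 2.06, SE 0.54, edgeR adjusted p = 0.0409). The list summed to 8.07 to 17.9 CPM in TNF-treated cells at 24 h against 4.86 to 6.27 CPM untreated, and to 4.87 to 12.2 against 3.74 to 5.21 CPM at 72 h. The highest Cd68 was in replicate 1 of the treated cells at each time (15.3 and 9.57 CPM). Without that library at 24 h the log2 change was 1.22 and the edgeR adjusted p 0.316. Leaving out any of the untreated 24 h libraries gave 0.107 to 0.181, and requiring 10 counts in every library 0.0535. The same library at 24 h was the highest of its group for 7 of the members, Nfkb1, Nfkb2, Relb, Rel, Nfkbie, Nfkbiz and, by a small margin, Tnfaip3. Without it Nfkb2, Relb, Nfkbie, Nfkbiz and Tnfaip3 still passed at 24 h and Nfkb1 did not. At 72 h replicate 1 of the treated cells was the highest of its group for Rel and Nfkbiz only. It was the lowest for Nfkb1, Nfkbib, Nfkbie and Tnfaip3. P2ry12 and Csf1r, the other 2 that could be tested, did not pass at either time, with log2 changes of -0.14 and -0.09 at 24 h and -0.34 and 0.54 at 72 h (edgeR adjusted p = 0.49 to 0.964). The 6 fibroblast and mural markers summed to 2.08 to 2.53 CPM with TNF and 0.604 to 1.55 CPM without it at 24 h. Col3a1, the 1 of them that could be tested, rose at 24 h (log2 2.12), with 3 to 6 counts per untreated library. That rise was not called without untreated replicate 1 or 2 (edgeR adjusted p = 0.0502 and 0.0547), nor was Col3a1 called at 72 h. Astrocyte markers summed to 4869 to 6191 CPM with TNF and 5317 to 5782 CPM without it at 24 h, when Aldoc alone of the 8 fell (log2 -0.65, edgeR adjusted p = 0.0417). That call was lost without any of the untreated libraries or TNF replicate 1 or 2 and with only the groups compared (edgeR adjusted p = 0.0505 to 0.149). They summed to 3481 to 4882 CPM with TNF and 5689 to 8135 CPM without it at 72 h, when 3 of the 8 fell, Aldoc (log2 -1.57), S100b (log2 -1.64) and Gfap (log2 -2.31, edgeR adjusted p = 1.31e-05, 1.66e-05 and 0.0128). The Gfap call was lost (edgeR adjusted p = 0.0577 to 0.0652) without replicate 2 of the untreated or replicates 2 or 3 of the treated cells. Its log2 change ran from -3.44 to -1.94 when single libraries were left out.

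Set side by side per length, the subunits changed their proportions with TNF. In NSPs Rela made up 47.1% ± 2.5 (SD, n = 3) of the summed subunit level per kb, Nfkb1 22.7% ± 2.1, Nfkb2 20.5% ± 1.3, Relb 7.54% ± 1.7 and Rel 2.21% ± 0.93. Ranges of Nfkb1 and Nfkb2 in this order overlapped, and the others did not. At 24 h the share of Rela was 44.2% ± 1.1 without and 30.4% ± 4.2 with TNF, and at 72 h 42.0% ± 1.7 without and 26.7% ± 2.2 with it. The share of Relb went the other way, being 5.49% ± 0.51 without and 19.4% ± 3.1 with TNF at 24 h, and 7.10% ± 0.61 and 22.6% ± 0.39 at 72 h. The level of Rela itself was about the same in treated and untreated cells (10.6 against 9.65 CPM per kb at 24 h, 11.4 against 11.6 at 72 h), so its lower share came with the higher levels of Relb and Nfkb2. These shares are descriptions of the same libraries and were not tested.

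On the inhibitor side, Nfkbia made up most of the summed IkB level per kb, and its share was higher in treated cells. It was 69.1% ± 0.81 at 24 h and 86.8% ± 1.9 with TNF, and 63.1% ± 5.2 at 72 h and 83.3% ± 0.83 with TNF. NSPs had 53.5% ± 6.3 and cells at 1 week 68.8% ± 2.4. Nfkbiz was the next in NSPs, with 31.3% ± 6.2, and had 5.03% ± 1.4 at 72 h with TNF. The ratio of the summed IkB to the summed subunit level per kb, with Nfkbiz in the IkB sum, was 1.3 ± 0.012 in NSPs, 1.13 ± 0.15 at 24 h and 0.778 ± 0.14 at 72 h. From NSPs to 24 h the mean of the co-regulator Nfkbiz went from 8.739 to 3.807 CPM per kb. Nfkbia went from 15.18 to 17.04, Nfkbib from 2.579 to 2.348 and Nfkbie from 1.694 to 1.44 CPM per kb. The lower ratio at 24 h than in NSPs thus came with the lower Nfkbiz and is not a fall of Nfkbia. With TNF the ratio was 3.06 ± 0.20 at 24 h and 2.71 ± 0.20 at 72 h, and every treated library exceeded every untreated one. These are levels of mRNA, and protein was not measured in these libraries.

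**Figure D3:**
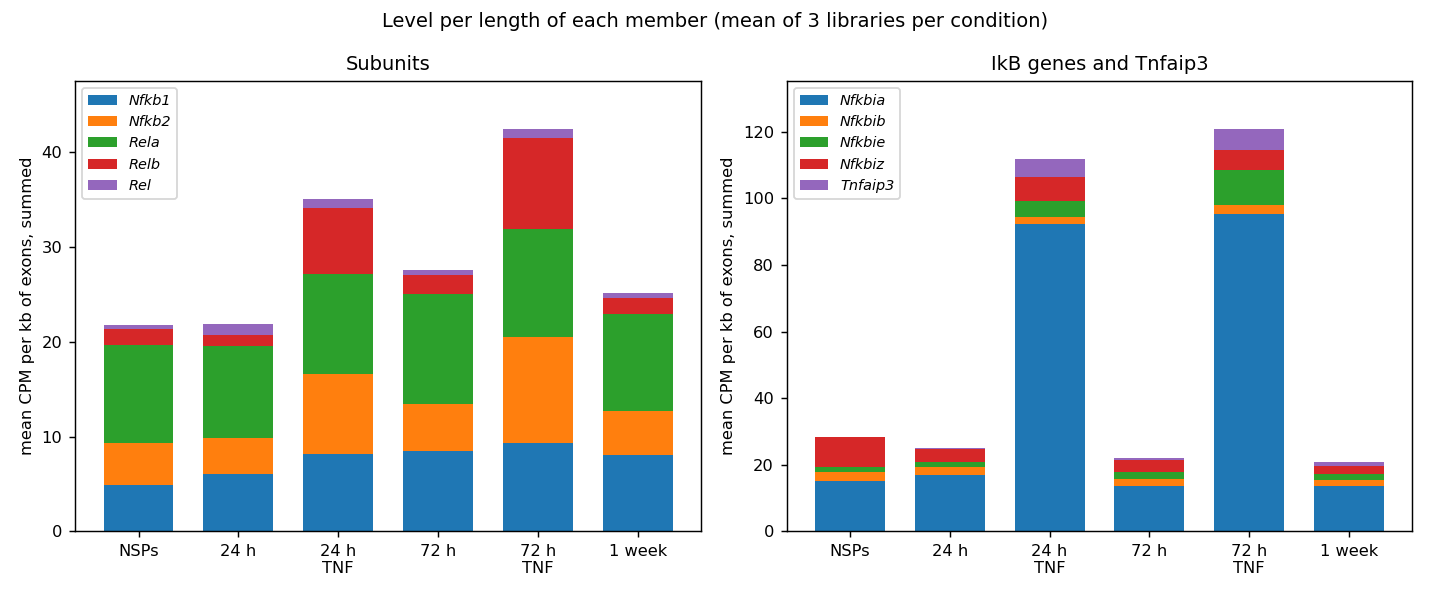
Stacked bars of the mean CPM per kb of exons over 3 libraries for the 5 subunit genes (left) and for the 4 IkB genes and Tnfaip3 (right), by condition, both axes from 0. TNF-treated cells show taller Relb and Nfkb2 segments, a Rela segment of similar height, and an Nfkbia segment of 92.3 and 95.3 CPM per kb against 13.6 to 17 in untreated cells.

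Differentiation in serum without TNF moved part of the members. From NSPs to 24 h, 3 rose and 1 fell, where 52.7% of genes changed (27.2% rose and 25.5% fell). The largest were Rel, which rose 2.37-fold (log2 1.25, SE 0.32, edgeR adjusted p = 0.00348), and Nfkbiz, which fell by 1.20 on the log2 scale (SE 0.17, edgeR adjusted p = 1.25e-05). Rel was at 4.88, 2.69 and 2.96 CPM in NSPs, below each 24 h library. Smaller rises were seen for Tnfaip3 (log2 0.71, SE 0.25, edgeR adjusted p = 0.0223), from 1.84, 2.41 and 2.16 CPM, and for Nfkb1 (log2 0.30, SE 0.10, edgeR adjusted p = 0.0164), from 57.5, 57.9 and 62.5 CPM. These smaller calls depended on single libraries and, for Nfkb1, on the filter. That of Tnfaip3 was lost without NSP replicate 1 or without replicate 2 or 3 at 24 h (edgeR adjusted p = 0.0758, 0.066 and 0.0614). That of Nfkb1 was lost without NSP replicate 2 or replicate 3 at 24 h (edgeR adjusted p = 0.0514 and 0.0537), so that 2 members were called without the latter library. It was also lost with no filter on low counts (edgeR adjusted p = 0.234). Relb, at 4.31, 7.79 and 7.22 CPM in NSPs, passed as lower at 24 h only when NSP replicate 1 was left out (log2 -0.69, edgeR adjusted p = 0.014).

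From 24 h to 72 h, 3 members rose and 1 fell, where 24.8% of genes changed (12.2% rose and 12.6% fell). Nfkb1 rose 1.4-fold (log2 0.49, SE 0.10, edgeR adjusted p = 0.00134), Relb 1.64-fold (log2 0.71, SE 0.23, edgeR adjusted p = 0.0296) and Nfkbie 1.53-fold (log2 0.61, SE 0.21, edgeR adjusted p = 0.0442). Rel fell back by 0.99 on the log2 scale (SE 0.32, edgeR adjusted p = 0.0291). Its level was thus highest at 24 h among the untreated conditions. The calls of Relb, Rel and Nfkbie were each lost without any of the 3 libraries at 24 h and without replicate 2 or 3 at 72 h, with edgeR adjusted p of 0.0531 to 0.15, which left Nfkb1 as the single member called. Nfkbie was also lost with the replicate number as a block (edgeR adjusted p = 0.0613), with no filter (0.0569) and with at least 5 counts in total (0.0585). The untreated gain of Tnfaip3 (log2 0.61, SE 0.23, edgeR adjusted p = 0.062) did not pass. It did with that block, with no filter and with only the groups compared (edgeR adjusted p = 0.0441, 0.0497 and 0.0416).

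From 72 h to 1 week no member passed in edgeR's or DESeq2's test, where 6.63% of genes did in edgeR's (2.68% rose and 3.96% fell). Unadjusted, 2 members were under 0.05, Nfkbiz and Tnfaip3 (edgeR adjusted p = 0.0891 and 0.127). Levels at 1 week and 72 h did not overlap for these 2, nor for Nfkbie, which was lower at 1 week without passing (log2 -0.40, edgeR adjusted p = 0.317). The share of all genes without such overlap was not counted for the steps in time. Nfkbiz was at 13, 12.6 and 11.5 CPM, the lowest of any condition, and Tnfaip3 at 7.10, 9.09 and 7.81 CPM, the highest of the untreated conditions. The mean level of Tnfaip3 was 2.14 CPM in NSPs and then, without TNF, 3.51 CPM at 24 h, 5.35 CPM at 72 h and 8 CPM at 1 week, and the ranges of neighbouring conditions did not overlap. All of these means were far below those with TNF (38.3 CPM at 24 h and 45.7 CPM at 72 h).

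**Figure D4:**
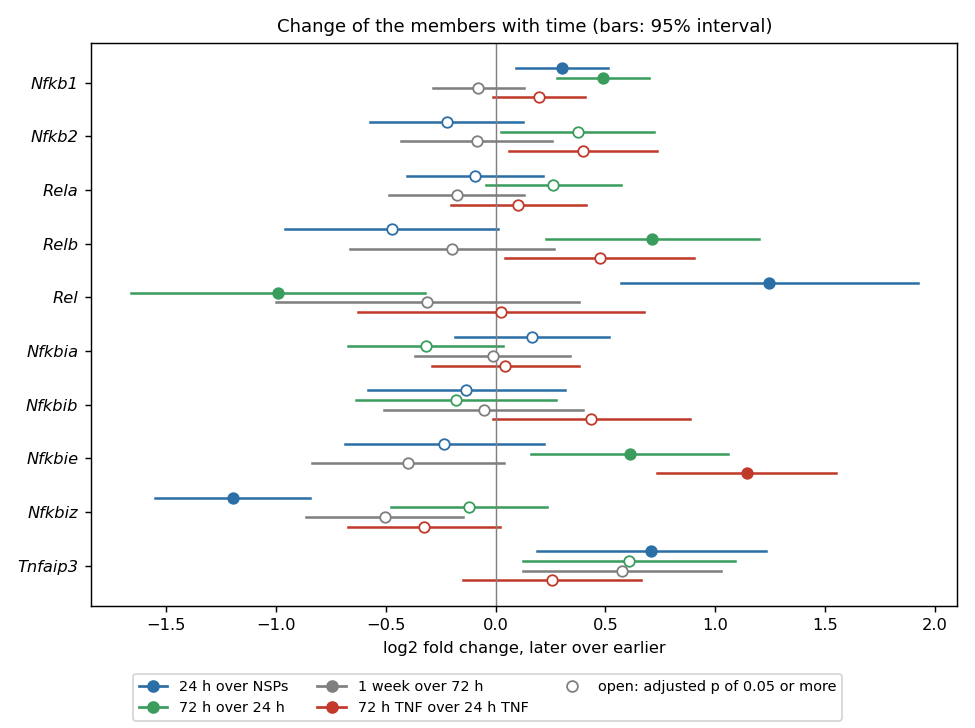
Log2 fold change of the later over the earlier condition on the horizontal axis for the 10 genes in 3 untreated steps and in the step from 24 h to 72 h under TNF, with 95% intervals as bars and filled points for changes that passed the test. Most intervals include 0, Nfkbiz lies at -1.20 and Rel at 1.25 in the first step, and Nfkbie lies at 1.14 under TNF.

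Most genes that carry the signal to NF-kB did not pass the test with TNF. A list of 59 other pathway genes was read in the same fit, of which 45 could be tested. At 24 h 9 of them rose and none fell (median log2 0.19), and at 72 h 8 rose and none fell (median log2 -0.01), to be read against the 2.18% and 4.35% of all genes that rose. None of the 8 kinase genes, which hold the IkB kinase complex (Chuk, Ikbkb, Ikbkg), the non-canonical kinase NIK (Map3k14), TAK1 (Map3k7) and its partners (Tab1, Tab2, Tab3), passed at either time. Their log2 changes ran from -0.27 to 0.34 at 24 h and from -0.47 to 0.25 at 72 h. DESeq2 called 9 of the 45 at each time, at 72 h with 1 of them lower.

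Of 13 adaptor and ubiquitin ligase genes, Traf2, an adaptor of the TNF receptor complex, rose at both times. It was at 19.3, 21.1 and 18.6 CPM without and 44.5, 38.6 and 44.7 CPM with TNF at 24 h (log2 1.11, SE 0.12, edgeR adjusted p = 2.16e-05), and the log2 change was 1.08 at 72 h (SE 0.12, edgeR adjusted p = 1.2e-05). Traf3, which restrains NIK, rose at 72 h (log2 0.69, SE 0.18, edgeR adjusted p = 0.0167), but not without replicate 2 of the untreated or replicate 3 of the treated cells (edgeR adjusted p = 0.0769 and 0.0752), nor with the replicate block with 72 h replicate 3 unpaired (0.094). The adaptor and ligase gene Birc3 had too few counts to be tested, with 2 to 5 counts at 24 h and 6 to 8 at 72 h in treated libraries and at most 2 in the others. The receptor genes Tnfrsf1a and Ltbr were tested and did not pass with TNF at either time (edgeR adjusted p = 0.158 to 0.502).

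Among 13 other negative regulators, Tnip1, which works with A20, rose at 24 h (log2 0.65, SE 0.17, edgeR adjusted p = 0.0416) and at 72 h (log2 1.18, SE 0.17, edgeR adjusted p = 0.000165). The call at 24 h was lost without any of the 3 untreated libraries or without replicate 1 or 3 of the treated ones (edgeR adjusted p = 0.0551 to 0.249). It was also lost with the replicate block in both forms, with at least 5 counts in total, with 10 counts in every library and with only the groups compared (edgeR adjusted p = 0.0525 to 0.0676). Nlrc5, better known as an activator of MHC class I genes, rose at 24 h (log2 1.14, SE 0.24, edgeR adjusted p = 0.0106), but not without replicate 1 or 2 of the untreated or replicate 1 of the treated cells (edgeR adjusted p = 0.0557, 0.0933 and 0.0714). It was not called at 72 h. The IkB-like genes Nfkbid and Nfkbil1 did not pass at either time. Bcl3, a nuclear IkB-like co-regulator, had too few counts to be tested, with 2 to 11 counts at 24 h and 1 to 17 at 72 h in treated libraries and at most 2 in the others, and replicate 1 held the highest count at each time.

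Some well-known target genes had larger changes than the members. Of 9 that could be tested, 6 rose at 24 h and 5 at 72 h. The chemokine gene Ccl2 was at 0.151, 0.112 and 0.488 CPM without and 25.1, 28.3 and 24.4 CPM with TNF at 24 h (log2 6.75, SE 0.43, edgeR adjusted p = 3.5e-08). At 72 h it was at 0.832, 1.23 and 2.03 CPM without and 3.94, 3.77 and 4.38 CPM with TNF (log2 1.53, SE 0.34, edgeR adjusted p = 0.00611). Vcam1, an adhesion molecule, rose by a log2 of 3.34 at 24 h and 2.81 at 72 h (SE 0.23 and 0.22, edgeR adjusted p = 4.94e-08 and 2.95e-07). Complement C3 was at 1.21, 1.73 and 6.76 CPM without and 356, 89.5 and 104 CPM with TNF at 24 h, and at 103, 128 and 117 CPM without and 1523, 1361 and 1378 CPM with it at 72 h (log2 5.87 and 3.61, SE 0.58 and 0.49, edgeR adjusted p = 7.04e-06 and 8.24e-05). The sizes at 24 h depended on single libraries, and the log2 change was 6.92 for C3 and 7.56 for Ccl2 without untreated replicate 3 and 4.94 for C3 without TNF replicate 1. Csf1, the growth factor of microglia, rose by 0.78 and 0.52 on the log2 scale (SE 0.10 at each time, edgeR adjusted p = 0.000204 and 0.00284). Of the 11 targets with too few counts to be tested, Icam1 had at most 3 counts in every library.

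**Figure D5:**
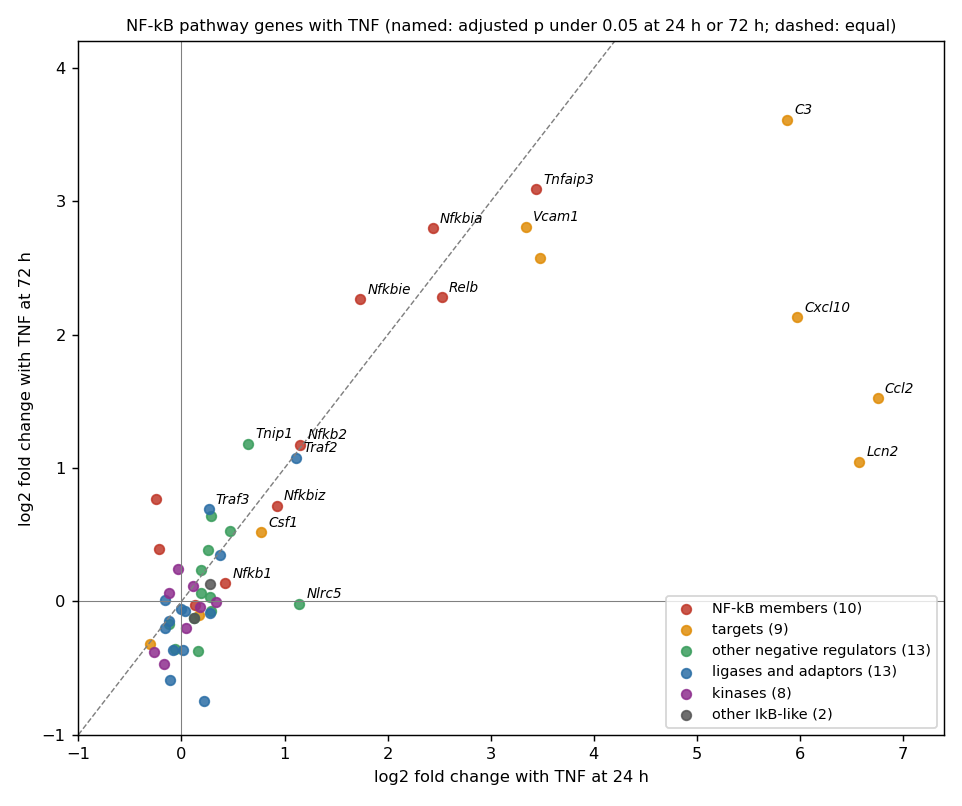
Log2 fold change with TNF at 24 h (horizontal) against 72 h (vertical) for the 10 members and 45 other pathway genes, coloured by role, with a dashed line where both are equal and names on the genes that passed the test at either time. Most members lie near the dashed line, while Ccl2, Cxcl10, Lcn2 and C3 lie below it at the right and the kinases cluster near 0.

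The genes outside the 10 whose log2 CPM followed a member most closely over the 18 libraries, out of 16438 such genes with a mean of at least 1 CPM, were taken as a description. Members were left out of this ranking, and some of them followed each other more closely, such as Relb with Nfkb2 (r = 0.964) and Nfkbie (r = 0.962). Relb with Nfkbia (r = 0.946) was below the closest outside gene of either. Vwf, the gene of von Willebrand factor, was among the 3 closest of these genes for Nfkb2, Relb, Nfkbia and Nfkbie (Pearson r = 0.94, 0.957, 0.955 and 0.961). Traf2 was among them for Nfkb2 and Relb (r = 0.929 and 0.956), and H2-Q4 was the third of these genes for Nfkb2 (r = 0.922). Cmtm4 was among them for Relb and Nfkbie (r = 0.96 and 0.958), Stx11 and Rnf213 for Nfkbia (r = 0.963 and 0.937) and Reep1 for Nfkbie and Tnfaip3 (r = 0.955 and 0.937). Tnfaip3 was also followed by 9530053A07Rik (r = 0.944) and by Tlr4, the endotoxin receptor (r = 0.936). Nfkb1 went with Lbp, Ahnak and Fsd1l (r = 0.976, 0.974 and 0.969) and Nfkbiz with Syne2, Itpripl1 and Phlda1 (r = 0.947, 0.944 and 0.944). All libraries share the 6 conditions, so such values largely follow the condition means.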

How the data were processed

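Total RNA of 18 cultures was depleted of ribosomal RNA and made into stranded libraries by the authors. The paper gives a wide range of RNA quality numbers for its samples. The quality of single libraries is not given in the sources used here, and its part in the results was not tested. Per the submitters' processing notes, reads were checked with FastQC, trimmed with Trim Galore, aligned to mm10 with STAR, sorted with SAMtools and counted per gene with featureCounts. Tool versions and whether counting used strand are not given in the sources used here. The authors deposited raw counts, not normalized, for 54838 genes, and all 18 columns were used (0 left out). For 72 h replicate 3 the column name holds a 4 in place of the 3.

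From the deposited counts, edgeR 4.0.16 (limma 3.58.1, R 4.3.3) fitted a mean per condition over all 18 libraries with TMM normalization. The 20067 genes passing its filter by condition were tested by quasi-likelihood with Benjamini-Hochberg adjustment over all of them (threshold 0.05). SE was taken as the log2 change over the root of its F statistic. Log2 CPM used a prior count of 2. Gene names, positions and exonic lengths are from GENCODE M21 on GRCm38. Figures used Python 3.11.15 and matplotlib 3.10.9. The fit was tested on simulated data.

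The members and gene lists were chosen with earlier results of these data known. The text names all 10 members, any kinase or further IkB-like gene, of each other list the 4 genes with the smallest adjusted p with TNF at 24 h and the 4 at 72 h, and for members called with TNF the 3 genes outside the members of closest pattern. Genes with too few counts for the test and markers at 0 were named after their values were seen.

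Alternatives were DESeq2 1.42.0, RLE normalization, no filter, at least 5 counts in total, at least 10 counts in every library, only the groups compared, a log2 fold change of at least 1, a block for the replicate number in the labels (also with 72 h replicate 3 unpaired), and leaving out each library. Deviations of same-numbered libraries from their condition means correlated at 0.255 to 0.291 across genes in all 3 pairs between 72 h and 24 h with TNF, which pairs these by the rule used here, though no label names a shared source. In the other comparisons at least 1 pair fell under 0.1.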

Additional observations from a re-analysis of the deposited data

Results flagged for a closer look

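The log2 effect of TNF differed between 72 h and 24 h for 4 of the genes read beside the NF-kB members, by the interaction test, in which 0.324% of all genes had a lower effect at 72 h. For Ccl2 the effect at 72 h was -5.23 relative to 24 h (SE 0.57, edgeR adjusted p = 0.000255), and it passed in all 19 alternatives that could be run. For Lcn2, the iron-binding lipocalin of reactive astrocytes, it was -5.52 (SE 1.05, edgeR adjusted p = 0.0275), with untreated libraries at 24 h holding 0, 0 and 4 counts, so that the size of the fitted fold depends on the prior count. For Cxcl10, an interferon-inducible chemokine, it was -3.84 (SE 0.82, edgeR adjusted p = 0.0444), and untreated libraries went from 0, 0 and 4 counts at 24 h to 27, 40 and 53 at 72 h. For the astrocyte marker S100b it was -1.32 (SE 0.26, edgeR adjusted p = 0.0309). Without untreated replicate 3 at 24 h, which leaves 2 untreated libraries at 0 counts, the fitted difference was -9.24 for Lcn2 and -7.56 for Cxcl10. The last 3 calls depended on single libraries and settings. That of Lcn2 was lost without untreated replicate 1 or 2 at 24 h, without untreated replicate 2 or 3 at 72 h, without TNF replicate 3 at 72 h and with only the groups compared (edgeR adjusted p = 0.0534 to 0.114). That of Cxcl10 was lost without the same libraries, without any TNF library at 24 h, with only the groups compared and with the replicate block with 72 h replicate 3 unpaired (edgeR adjusted p = 0.0525 to 0.167). That of S100b was lost without any untreated library at 24 h, TNF replicate 1 at 24 h, or replicates 2 or 3 of either group at 72 h, with only the groups compared and with both forms of the replicate block (edgeR adjusted p = 0.0538 to 0.199).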

How the results depend on the processing

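The number of members called with TNF was 7 at 24 h and 6 at 72 h, and over the alternatives it ran from 5 to 7 at each time. At both times Nfkb2, Relb, Nfkbia, Nfkbie and Tnfaip3 passed in all 14 alternatives fitted for single genes, and so did Nfkbiz at 24 h. Leaving out single libraries gave 6 to 7 members at 24 h, 5 to 6 at 72 h, 0 in the interaction, 2 to 4 from NSPs to 24 h, 1 to 4 from 24 h to 72 h, 0 from 72 h to 1 week and 1 to 4 between the TNF times. For the pathway list it gave 7 to 9 at 24 h and 7 to 11 at 72 h. Requiring a log2 fold change of at least 1 left 2 members from NSPs to 24 h and 0 from 24 h to 72 h. From 72 h to 1 week, 1 member (Nfkbiz) passed with the replicate block and 1 with only the groups compared. With 10 counts required in every library, which leaves fewer genes tested, 3 pathway genes passed at 24 h, and with no filter 13 did at 72 h. The replicate block left the members' counts at 7, 6, 0, 4, 4 and 1 in the TNF, interaction, NSP, 24 h to 72 h and TNF time comparisons, and changed no call between the TNF times. From 24 h to 72 h the unchanged 4 holds a swap, since the block lost Nfkbie (edgeR adjusted p = 0.0613) and added Tnfaip3 (0.0441). With 72 h replicate 3 unpaired in the block, 1 member was called from 24 h to 72 h. The libraries of the other comparisons share only a number. Some uncalled values changed sign. Rela with TNF at 72 h was 0.0137 with 10 counts in every library and 0.00361 with only the groups compared, and -0.105 to 0.125 when libraries were left out. Rela from NSPs to 24 h was 0.0125 with 10 counts in every library and -0.174 to 0.0193 without single libraries. Nfkbia from 72 h to 1 week was 0.0137 without a filter, 0.000287 with 10 counts in every library, 0.0073 with the block, 0.131 with the block and 72 h replicate 3 unpaired, and -0.192 to 0.149 without single libraries. The interaction of Nfkb2 was -0.0849 with that unpaired block. Without single libraries it was -0.109 to 0.194, that of Rela -0.238 to 0.00714, Nfkbib from NSPs to 24 h -0.251 to 0.0304, Nfkb2 and Nfkbib from 72 h to 1 week -0.184 to 0.0132 and -0.199 to 0.0327, and Rel between the TNF times -0.19 to 0.358. The causes were not tested. Over all genes, the interaction gave 92 calls in edgeR's test, 244 in DESeq2's, 554 with no filter, 56 with 10 counts in every library, 40 with only the groups compared and 24 with the unpaired block. Likewise 703 calls with TNF at 24 h became 1374 with no filter, 1919 at 72 h became 986 with the unpaired block, and 2670 between the TNF times became 872 with only the groups compared. From 24 h to 72 h 4970 became 3286 and from 72 h to 1 week 1331 became 617 with the unpaired block, and the latter became 2032 with no filter. Leaving out single libraries moved these counts too. Without any untreated 24 h library 363 genes were called with TNF at 24 h. At 72 h there were 982 and 1050 without untreated replicates 2 and 3 and 2942 without replicate 1. The interaction gave 25 to 36 calls without any untreated library at 24 h or replicate 2 or 3 at 72 h, 50 to 61 without TNF replicate 3 at 72 h, 1 week replicate 1 or 3 or NSP replicate 3, and 159 without NSP replicate 1. From 72 h to 1 week there were 626 to 830 without untreated replicate 2 or 3 at 72 h or any 1 week library. Between the TNF times there were 1238 and 1425 without replicates 2 and 3 at 24 h and 1641 without replicate 3 at 72 h. Leaving out TNF replicate 1 at 24 h gave 3793 for the same comparison. Among the members Rel (34 to 162 counts per library), Nfkbib (48 to 116) and, without TNF, Tnfaip3 (from 29) reached the lowest counts.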
